A study of Mus musculus with 16 samples.

Results

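The sort labels CCR2+ and CCR2- were compared in control mice, across all genes measured. The comparison takes the 4 arrays titled as CCR2+ tumour-associated macrophages (TAMs) of control mice and the 4 titled as CCR2- TAMs of control mice, 8 of the 16 arrays of the series. The other 8 arrays carry the same labels in RbpjiΔEC mice, in which endothelial cells lack Rbpj, the nuclear factor through which Notch signals. All animals were female C57BL/6N mice of 8 to 12 weeks, and the protocol given for every array, controls included, lists 1 oral dose of 1 mg tamoxifen. After 3 weeks they were injected intraperitoneally with ID8-luc, a luciferase-carrying line of mouse ovarian cancer, and the tumours grew for 4 weeks. Cells of the peritoneal lavage were sorted as positive for CD45, CD11b and the macrophage antigen encoded by Adgre1 and divided by CCR2, and their RNA was hybridised to Affymetrix mouse genome arrays. The alleles of the control mice and the Cre driver are not given in the sources used here. Whether the 4 arrays of a group are separate animals is not given, and the p-values may therefore rest on technical spread alone.

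CCR2 is the receptor through which inflammatory monocytes follow the chemokine CCL2 out of the bone marrow and into tissue. The mouse peritoneal cavity holds large peritoneal macrophages, resident cells rich in the Adgre1 antigen that depend on the transcription factor GATA6 and on retinoic acid. It also holds small peritoneal macrophages, which derive from CCR2+ monocytes and carry less of that antigen and more MHC class II. Another large population are B cells, many of them B-1 cells, which can carry CD11b at a low level.

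The sort was on surface protein and the arrays measure RNA, so "labelled CCR2+" and "labelled CCR2-" below name the deposited label only. All values are log2 intensities after quantile normalization over the 8 arrays, differences are CCR2+ minus CCR2- labels, and adjusted p-values come from limma with Benjamini-Hochberg adjustment over 18194 genes. Ccr2 itself read 6.91, 9.31, 8.40 and 7.50 in the 4 arrays labelled CCR2+ and 11.54, 9.06, 9.57 and 9.92 in the 4 labelled CCR2-, a difference of −1.99 (SE 0.59, adjusted p = 0.0224). The groups overlapped, and the RNA of the sorted receptor was lower on average under the label that names it. That call was lost without the arrays labelled CCR2+ control 1 (−1.60, adjusted p = 0.0639) or 4 (−1.80, adjusted p = 0.0592), and without CCR2- controls 1 and 3 together (−1.55, adjusted p = 0.117). It was also lost with array weights (−1.44, adjusted p = 0.0536) and without moderation of the variance (adjusted p = 0.0932). All 4 Ccr2 probe sets were lower, from −1.99 to −0.91, each at adjusted p under 0.05 (limma over all probe sets). The least variable of them read −1.18 (SE 0.17, adjusted p = 0.00033). Adgre1, which encodes the antigen of the macrophage gate, read 13.16, 13.34, 13.42 and 13.13 against 8.95, 9.20, 9.34 and 9.52 (difference 4.01, SE 0.13, adjusted p = 6.03e-09). Itgam, which encodes CD11b, read 12.79, 12.60, 12.85 and 12.68 against 9.50, 9.40, 9.49 and 9.60 (3.23, SE 0.09, adjusted p = 2.82e-09). Both of these gate genes were far apart with no overlap, although the gate is the same for both labels. Ptprc, which encodes CD45, differed by −0.34 (SE 0.15, adjusted p = 0.109), by 0.17 under median centring, and by −1.82 in its other probe set. It passed without CCR2+ control 3 (−0.44, adjusted p = 0.0419) or CCR2- control 4 (−0.44, adjusted p = 0.0356).

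Markers of other cells moved with the label. Members of both lists below were chosen with earlier results of these data known, and several are among the largest differences of this comparison. Their counts are therefore descriptions and not tests. Of 23 measured genes of large peritoneal macrophages 23 were higher in the arrays labelled CCR2+ (median difference 5.17), where 18.4% of all genes were called higher, and their mean level was 12.35 to 12.46 against 7.78 to 8.08. Of 19 B cell genes 18 were lower (median −4.65), where 19.8% of all genes were called lower, and their mean level was 7.99 to 8.13 in the arrays labelled CCR2+ and 11.53 to 11.90 in those labelled CCR2-. Group means of single B cell genes in the arrays labelled CCR2+ ran from 6.47 (Fcmr) to 11.94 (Cd37), with Fcrla at 6.54 and Cd79a at 7.69. Of the 19, 1 (Fcmr) lay within the range of the bacterial trp control given below, and Fcrla lay at the upper edge of that range. These shifts accompany every gene group described below, and their part in each was not tested. In such bulk samples fewer cells of a type and less RNA per cell cannot be told apart.

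The columns of the 2 labels were also deposited on different scales. Median intensities were 234.5 to 242.2 in the arrays labelled CCR2+ and spread from 187.2 to 270 in those labelled CCR2-. Every deposited value of the latter became a whole number on multiplying by 22 or a smaller integer, to within 0.001, while only 2.58% to 2.83% of the former did. The label and this difference of scale cannot be told apart. Arrays of 1 label correlated at 0.971 to 0.991 and arrays of different labels at 0.847 to 0.867, and 84.2% of the variance lay on the first principal component. The trp control, a bacterial sequence, read 6.40 to 6.54 across the 8 arrays, so a difference against a group at that floor is a lower bound in size. The 3' minus 5' signal of actin, a measure of RNA integrity, was 0.257 against 0.344 (exact permutation p = 0.0857) and that of Gapdh 0.204 against 0.106 (exact permutation p = 0.286). The added control bioB read 10.59 against 11.13 (exact permutation p = 0.0286), a shift absent from the deposited values (−0.02, exact permutation p = 0.8286). The 18S, dap and thr controls differed the other way, by 0.51, 0.72 and 1.07 (exact permutation p = 0.143, 0.2 and 0.0857), and by 1.03, 1.06 and 1.22 as deposited (exact permutation p = 0.0857, 0.114 and 0.0571). The smallest p such a test of 4 against 4 arrays can give is 0.0286.

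Between the labels 6960 of 18194 genes were called at adjusted p under 0.05, 38.3%, with 3353 higher (18.4%) and 3607 lower (19.8%) in the arrays labelled CCR2+. Higher calls were 48.2% of all calls, but 67.2% under median centring and 73.9% without normalization, and which direction prevailed was set by the scaling. At least 2-fold differences held for 1438 genes in the higher direction (7.9%) and 1067 in the lower (5.86%). At least 16-fold differences held for 91 (0.5%) and 76 (0.418%). The groups did not overlap for 6794 genes (37.3%), and the median difference over all genes was −0.03. Counts of list members given below are to be read against the 18.4% higher and 19.8% lower of all genes.

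**Figure D1:**
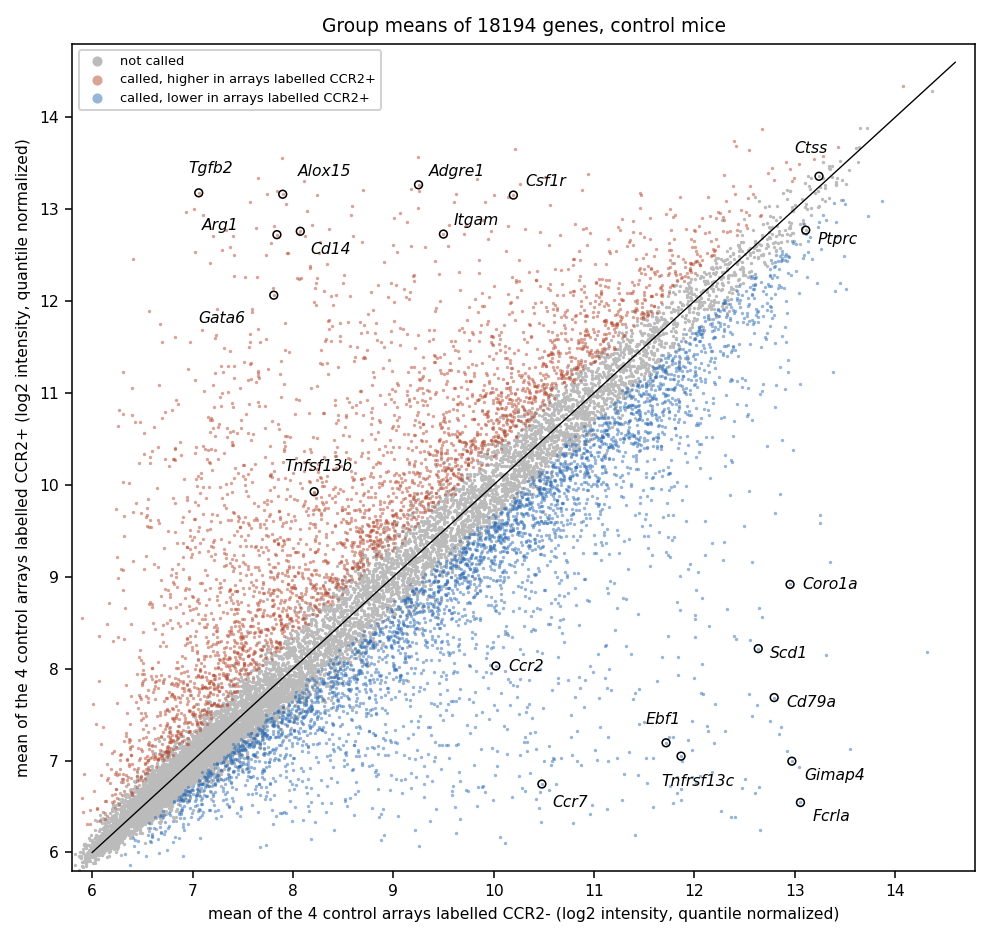
Each point is 1 of 18194 genes, placed by its mean log2 intensity in the 4 control arrays labelled CCR2- (horizontal) and the 4 labelled CCR2+ (vertical); red and blue points passed limma's adjusted p of 0.05, grey ones did not, the line marks equal means, and circles mark genes named in the text. Genes such as Tgfb2, Alox15 and Gata6 lie far above the line, and Fcrla, Gimap4 and Cd79a far below it, while Ctss and Ptprc lie beside it at the bright end.

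The 15 largest differences in the higher direction were led by genes of secreted and surface proteins. Tgfb2, a transforming growth factor gene, read 13.44, 13.23, 13.32 and 12.72 in the arrays labelled CCR2+ and 6.74, 7.0, 7.19 and 7.31 in those labelled CCR2- (difference 6.12, SE 0.17, adjusted p = 2.82e-09). Serpinb2, an inhibitor of plasminogen activators, differed by 6.05 from a lower group at the floor, and Ltbp1, which holds latent TGF-beta in the matrix, by 6.04. Vsig4 (5.99), a complement receptor gene, and Selp (5.69), the P-selectin gene, are both known in large peritoneal macrophages, and all 4 of these genes had groups far apart. Fabp4 (5.83) and Fabp7 (5.31) encode fatty acid carriers, and Slpi (5.66) encodes a protease inhibitor. Aspa (5.51) encodes aspartoacylase, Ednrb (5.50) an endothelin receptor and F5 (5.50) coagulation factor V. Slfn4 (5.42) belongs to the interferon-inducible schlafen family, and Msr1 (5.36) is a scavenger receptor gene. The remaining pair, Vmn2r26 (5.44) and Adgb (5.32), carry names of a vomeronasal receptor and of androglobin, and each rests on 1 probe set.

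The 15 most negative differences held B cell and immunoglobulin genes. Fcrla, an intracellular Fc receptor-like protein of B cells, read 6.43, 6.59, 6.54 and 6.62 in the arrays labelled CCR2+ and 13.40, 13.01, 13.07 and 12.75 in those labelled CCR2- (difference −6.51, SE 0.13, adjusted p = 6.52e-10). Ms4a1, which encodes CD20, differed by −6.43, and the immunoglobulin transcripts Igk-V21, Igk, Igkv6-15 and Ighv14-2 by −6.41, −6.14, −6.11 and −5.96. Probe sets of immunoglobulin genes can share sequence, and 1 of the 4 Igk probe sets read −0.32. Of the others, Ikzf3, Blk, Ets1, Pou2af1 and Cd22 are genes of B cell signalling or transcription given below, and Cd2 (−5.56) encodes an adhesion molecule of lymphocytes. Gimap4 (−5.98) belongs to the GIMAP GTPases, B3gnt5 (−6.02) encodes a glycosyltransferase of the lacto-series and Diras2 (−5.98) a small GTPase of the Ras family. Igk-V21, B3gnt5, Diras2 and Ets1 had means at the trp floor in the arrays labelled CCR2+, so these 4 differences are bounds and have no order among themselves. The mean of Fcrla, 6.54, lay at the upper edge of that floor, so its difference may be a bound as well.

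**Figure D2:**
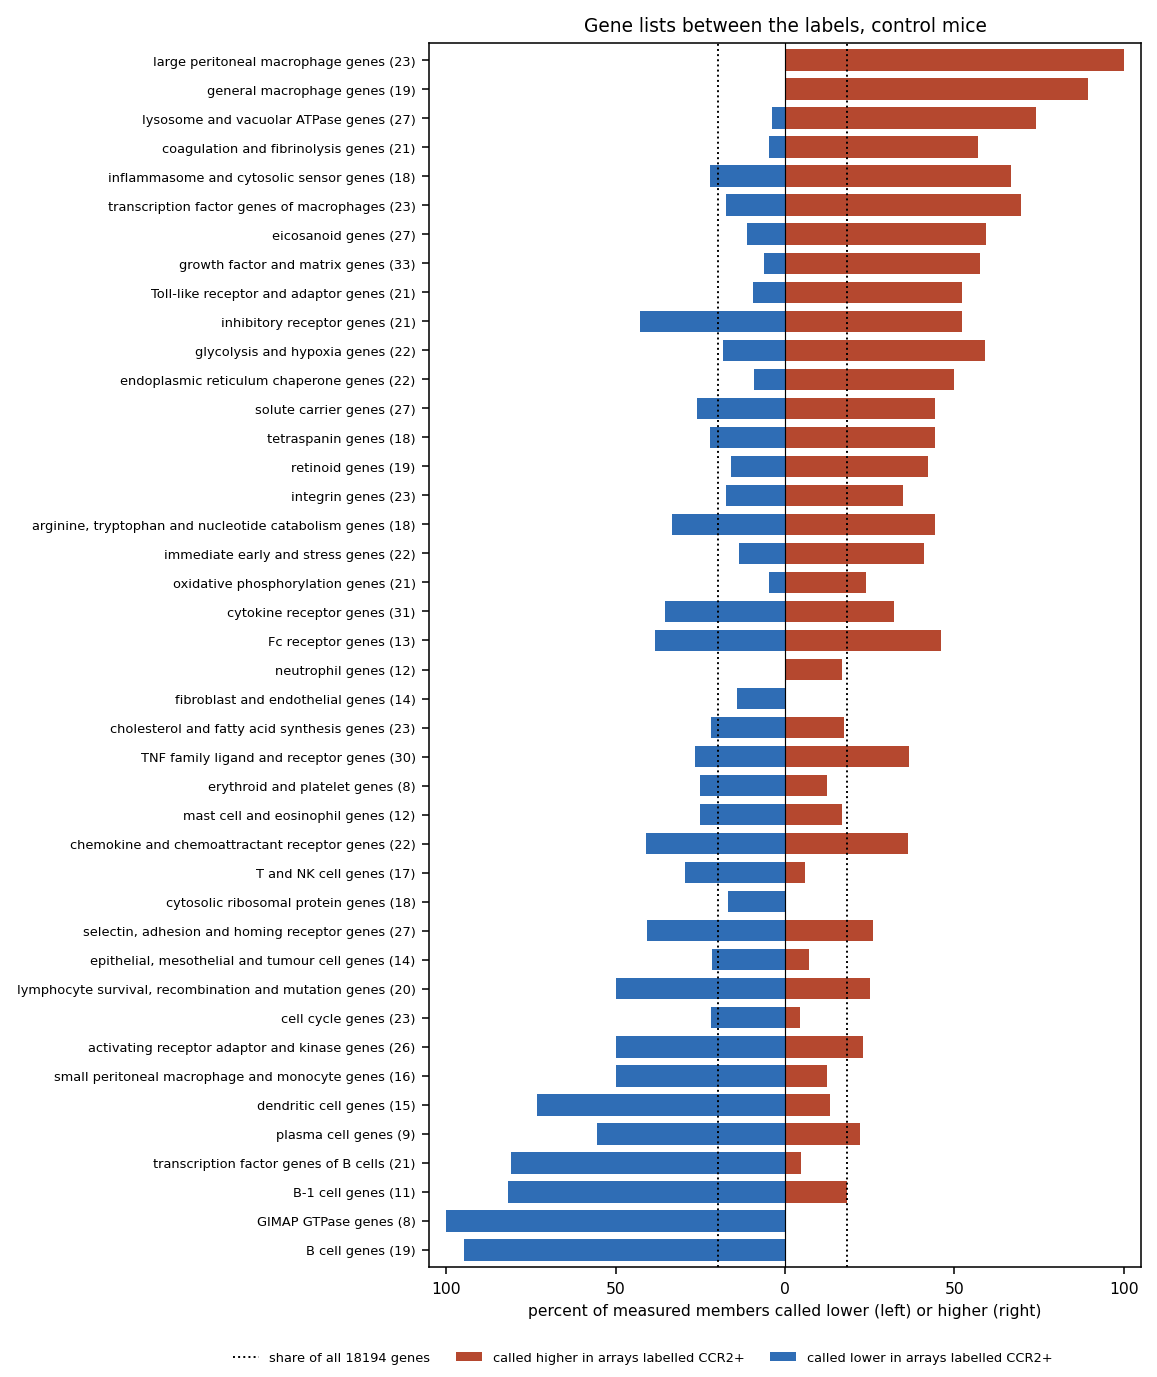
Bars give the percent of measured members of 42 gene lists called higher (right, red) or lower (left, blue) in the control arrays labelled CCR2+, with the number measured in brackets, ordered by the median difference; dotted lines mark 18.4% and 19.8% of all genes. Macrophage, lysosome and coagulation lists reach far past the right line, B cell and GIMAP lists far past the left one, and Fc receptor and inhibitory receptor lists past both.

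Transcription factor genes fell on both sides by lineage. Of 23 measured factors of macrophages 16 were higher and 4 lower in the arrays labelled CCR2+ (median 0.93), and of 21 factors of B cells 17 were lower and 1 was higher (median −1.58). The 17.4% of macrophage factors called lower lay near the 19.8% of all genes. Gata6, the factor of large peritoneal macrophage identity, read 12.19, 12.12, 12.07 and 11.87 against 7.20, 7.82, 8.02 and 8.19 (difference 4.26, SE 0.19, adjusted p = 5.73e-08). Rxra, the common partner of nuclear receptors, read 11.11, 10.64, 10.84 and 10.80 against 7.42, 7.02, 6.99 and 7.41 (3.64, SE 0.14). Its groups were more than 3 log2 units apart on every array. Mitf and Tfec, basic helix-loop-helix factors of the family that regulates lysosomal genes, differed by 3.54 and 3.30, the latter against the floor. Tfeb, of the same family, was not called. Cebpb and Cebpa, factors of myeloid development, differed by 3.09 and 2.94, with the arrays labelled CCR2- spread from 8.47 to 9.53 and from 8.12 to 9.53. Maf differed by 2.75, Klf4 by 1.84 and Bhlhe40, a factor needed for the self-renewal of large peritoneal macrophages, by 1.32. The 6 Maf probe sets read from 0.30, which was not called, to 3.89, and the other Cebpb probe set read 0.61. Spi1, which encodes PU.1, a factor of both macrophages and B cells, read 11.03, 10.36, 10.61 and 10.89 against 9.86, 9.70, 9.93 and 9.65 (0.93, SE 0.15, adjusted p = 0.000574). Its difference was small beside those of Gata6 and Rxra, though the groups still did not overlap.

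The 4 macrophage factors lower in the arrays labelled CCR2+ were Id3 (−1.15), Runx1 (−1.09), Irf8 and Irf5, and under median centring 2 were lower. Id3, an inhibitor of helix-loop-helix factors, stands on both factor lists. Ikzf3, which encodes Aiolos, a zinc finger factor of lymphocytes, read 6.76, 6.92, 6.53 and 6.64 against 12.54, 12.74, 12.62 and 12.69 (−5.94, SE 0.10, adjusted p = 2.77e-10). Pou2af1, the B cell coactivator that binds octamer factors, read 6.46, 7.04, 6.60 and 6.71 against 12.41, 12.39, 12.55 and 12.56 (−5.77, SE 0.13). Neither overlapped between the labels. Ets1 (−5.81, from the floor), Spib (−5.23) and Bcl11a (−5.16) were also lower, all 3 with roles in lymphocyte development. Ebf1 and Pax5, which set B cell identity together, differed by −4.53 and −3.14, and Bach2, which holds back plasma cell differentiation, by −3.10. Mef2c (−1.61), Foxo1 (−1.43) and Irf4 (−1.27) differed less, and the lowest of the 4 Foxo1 probe sets was not called. Etv6, a transcriptional repressor, was the B cell list member that was higher, by 0.87 (SE 0.14, adjusted p = 0.000669). Of the macrophage factors Tfeb, Stat3 and Pparg were not called, and of the B cell factors Mef2b, Bcl6 and Lef1.

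**Figure D3:**
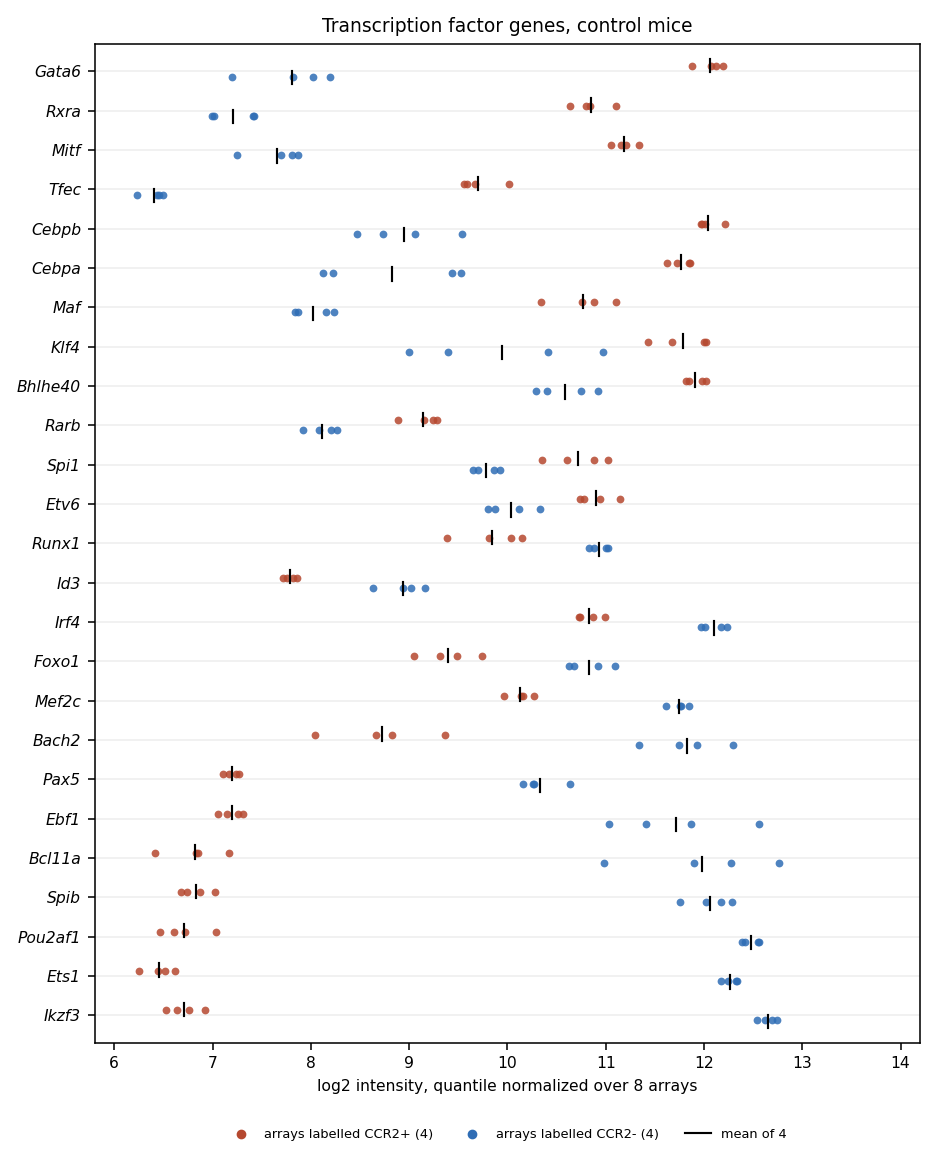
Log2 intensity of 25 transcription factor genes in each of the 8 control arrays, red for arrays labelled CCR2+, blue for arrays labelled CCR2-, with a tick at each group's mean of 4. Red points lie to the right from Gata6 to Etv6 and to the left from Runx1 to Ikzf3, and the distance grows from about 1 log2 unit at Spi1, Runx1 and Id3 to more than 4 at Gata6 and more than 5 at Ikzf3.

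Activating receptors of macrophages and B cells signal through different adaptors that share tyrosine motifs and kinases. Tyrobp, the DAP12 adaptor, read 12.68, 12.78, 12.73 and 12.96 in the arrays labelled CCR2+ against 10.77, 10.87, 10.98 and 10.93 (1.90, SE 0.10, adjusted p = 1.22e-07), and Fcer1g, the adaptor of Fc receptors, differed by 1.87. Neither was low under either label. Lcp2, the SLP-76 scaffold of myeloid and T cells, differed by 3.56 and Fgr, a Src family kinase of myeloid cells, by 1.36. The corresponding genes of the B cell receptor were lower: Cd79a read 7.79, 7.83, 7.39 and 7.73 against 12.55, 12.94, 12.77 and 12.92 (−5.11, SE 0.13), Cd79b differed by −5.49 and Blk, a Src family kinase of B cells, by −5.82. Blnk, the B cell scaffold that stands where Lcp2 stands in other cells, read 9.76, 9.13, 9.47 and 9.15 against 12.33, 12.33, 12.30 and 12.21 (−2.92, SE 0.14, adjusted p = 9e-08). Lcp2 and Blnk thus had opposite signs, each with groups at least 2 log2 units apart. Malt1, a protease downstream of antigen receptors, differed by −2.94 and Syk, the kinase that both kinds of adaptor recruit, by −1.26 (11.62 ± 0.09 against 12.87 ± 0.07, SD, n = 4 each). In all, 6 of 26 measured adaptor and kinase genes were higher and 13 lower, and 7 were lower under median centring.

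The octamer, a promoter element of immunoglobulin and other B cell genes, was searched as ATTTGCAT on both strands of RefSeq promoters of GRCm38.p6, from 250 bases before to 50 after each start. It was found for 2 of 14 B cell genes with a promoter (14.3%), Vpreb3 and Blnk, against 1.97% of 27025 genes. It was found for 1 of 18 B cell factors, Mef2b. The 250 bases before the start of Blnk (chr19:40994222-40994471, minus strand) are shown because this gene is the B cell counterpart of Lcp2, with the octamer in capitals, at −130 relative to the start.
Blnk: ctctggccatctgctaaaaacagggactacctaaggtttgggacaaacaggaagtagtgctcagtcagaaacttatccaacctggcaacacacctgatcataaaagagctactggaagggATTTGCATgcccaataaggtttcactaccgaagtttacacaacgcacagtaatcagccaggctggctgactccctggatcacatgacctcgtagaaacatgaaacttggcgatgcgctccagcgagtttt

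Fc receptor genes had both signs. The genes of activating IgG receptors, Fcgr3 (3.95), Fcgr4 (3.54) and Fcgr1 (3.23), were higher in the arrays labelled CCR2+, as was Fcgrt (2.21), which encodes the neonatal receptor that recycles IgG. Fcgr3 read 13.29, 13.14, 13.14 and 13.24 against 10.18, 8.56, 9.44 and 8.84, nearly equal on the arrays of the first label and spread over more than 1 log2 unit on those of the second. Fcrla, Fcrl1 (−3.58) and Fcer2a (−2.13), the low-affinity IgE receptor CD23 of B cells, were lower, as were Fcamr and Pigr. In all 6 of 13 were higher (46.2%) and 5 lower (38.5%), against 18.4% and 19.8% of all genes, with a median of 0.05.

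Inhibitory receptor genes were called nearly throughout, 11 of 21 higher and 9 lower, and the groups did not overlap for 20 of 21, where 37.3% of all genes do not overlap. Among the higher were Cd33, a sialic acid-binding lectin, by 3.94 (SE 0.15), Pilra by 3.03, Cd300a by 2.68 and Lair1, a collagen receptor, by 2.34. Those lower included Cd22, the sialic acid-binding brake of the B cell receptor, by −5.71 (SE 0.13), Siglecg by −4.89, Btla by −3.41 and Cd72 by −3.11. Cd22 read 6.96, 6.68, 6.82 and 6.72 against 12.20, 12.71, 12.43 and 12.68, and Cd33 read 11.39, 11.40, 11.84 and 11.35 against 7.52, 7.85, 7.58 and 7.29. These siglecs thus had opposite signs, with no overlap in either. Pecam1, an adhesion molecule with inhibitory motifs, was lower by −4.05, and Siglec1, a macrophage siglec, higher by 0.83 (SE 0.19, adjusted p = 0.00514). Clec4a2 was the member not called.

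Toll-like receptors bind microbial ligands, at the surface or in endosomes. Cd14, the coreceptor for lipopolysaccharide, read 12.59, 12.92, 12.66 and 12.87 in the arrays labelled CCR2+ against 8.38, 7.65, 8.05 and 8.21 (4.69, SE 0.16, adjusted p = 6.64e-09). Tlr13, a receptor for bacterial ribosomal RNA, differed by 4.06 and Tlr4, the lipopolysaccharide receptor, by 3.25, although the dimmest of the 4 Tlr4 probe sets read 0.02. Tlr8 differed by 1.83 and Tlr2 by 1.64. Tlr9, the receptor for unmethylated DNA, read 7.66, 7.44, 7.60 and 7.64 against 10.62, 11.12, 10.75 and 11.13 (−3.32, SE 0.13, adjusted p = 2.13e-08), and Tlr1 differed by −1.76. These were the only members of this list that were lower, and 11 of 21 were higher (median 0.59).

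Sensors of the cytosol and inflammasome genes were mostly higher, 12 of 18 with 4 lower (median 0.97), and 2 were lower under median centring. Ifih1, which encodes the RNA sensor MDA5, differed by 2.30, Nlrp3 by 1.97 and Naip2, which detects bacterial secretion rods, by 1.89. The interleukin-1 genes had opposite signs. Il1a read 9.02, 9.35, 9.08 and 8.86 against 6.27, 6.40, 6.35 and 6.22 (2.77, SE 0.11, adjusted p = 2.78e-08), a lower bound because the second group lay at the floor. Il1b read 7.60, 8.25, 7.63 and 8.02 against 9.40, 8.97, 9.46 and 8.55 (−1.22, SE 0.22, adjusted p = 0.00132), with no overlap. Sting1, the adaptor that cyclic dinucleotides activate, was lower by −1.37 (SE 0.11), and the others lower were Il18 and Ddx58.

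Receptors of myeloid growth factors were higher in the arrays labelled CCR2+. Csf1r, on whose signal macrophages depend, read 13.17, 13.21, 13.11 and 13.13 against 11.05, 9.51, 10.11 and 10.11 (2.96, SE 0.26, adjusted p = 8.5e-06), and its lowest value under the first label was still above the highest under the second. Csf3r, the G-CSF receptor gene, differed by 3.21 and Csf2ra, a GM-CSF receptor chain, by 1.95. Il13ra1 (1.97), with 1 of its 5 probe sets at 0.16, and Ifnar2 (1.51) were also higher. Receptors of lymphocyte cytokines were lower. Il5ra, a growth factor receptor of B-1 cells and eosinophils, read 6.62, 6.63, 6.68 and 6.12 against 10.96, 10.88, 10.99 and 11.10 (−4.47, SE 0.13, adjusted p = 3.25e-09), from the floor. Il2ra (−1.90) and Il7r (−1.47), both from the floor, Il9r (−1.41) and Il21r (−1.34) encode receptors that signal through the common gamma chain, and Flt3 (−1.69) a receptor of dendritic cell precursors. Over the list 10 of 31 were higher and 11 lower.

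Members of the TNF family showed a ligand and its receptors on opposite sides. Tnfsf13b, which encodes the B cell survival factor BAFF, read 10.13, 9.85, 9.85 and 9.88 in the arrays labelled CCR2+ against 8.31, 8.24, 8.70 and 7.59 (1.71, SE 0.20, adjusted p = 7.33e-05). Its receptor gene Tnfrsf13c read 7.22, 7.23, 6.86 and 6.88 against 11.72, 12.01, 11.79 and 11.94 (−4.82, SE 0.12, adjusted p = 1.44e-09). Tnfrsf13b, which encodes the second receptor TACI, differed by −2.85 and Ltb, a lymphotoxin chain, by −3.62. The death domain receptors Tnfrsf1a (3.03), Tnfrsf21 (2.84) and Fas (2.60) were higher. Counts were 11 of 30 higher (36.7%) and 8 lower (26.7%), against 18.4% and 19.8% of all genes.

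Chemoattractant receptor genes had both signs. Several were higher in the arrays labelled CCR2+: Fpr2, a formyl peptide receptor, read 11.92, 12.58, 12.24 and 12.29 against 6.84, 7.93, 7.50 and 7.81 (4.74, SE 0.23, adjusted p = 9.87e-08). Cmklr1, the chemerin receptor, differed by 4.38, Ackr3, a scavenger of CXCL12, by 4.05 from the floor, C3ar1 by 3.51, C5ar1 by 3.25 and Ccr1 by 2.06. Others were lower: Cxcr5, which guides lymphocytes to follicles, read 7.09, 7.08, 7.02 and 7.25 against 11.84, 11.88, 11.94 and 12.25 (−4.87, SE 0.11, adjusted p = 8.86e-10). Ccr6 (−4.71), Gpr183 (−4.03), an oxysterol receptor, Ccr7 (−3.74) and Cxcr4 (−2.88) followed, and none of these receptors overlapped between the labels. Cx3cr1, the fractalkine receptor of monocytes, read 8.33 ± 0.17 against 8.52 ± 0.25 (SD, n = 4 each) and was not called (−0.19, SE 0.14, adjusted p = 0.317). Of 22 measured receptors 8 were higher and 9 lower. Among other homing genes Cd69 (−3.42), which keeps lymphocytes in tissue, lay at the floor in the arrays labelled CCR2+, and S1pr4, a sphingosine phosphate receptor, differed by −3.12.

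**Figure D4:**
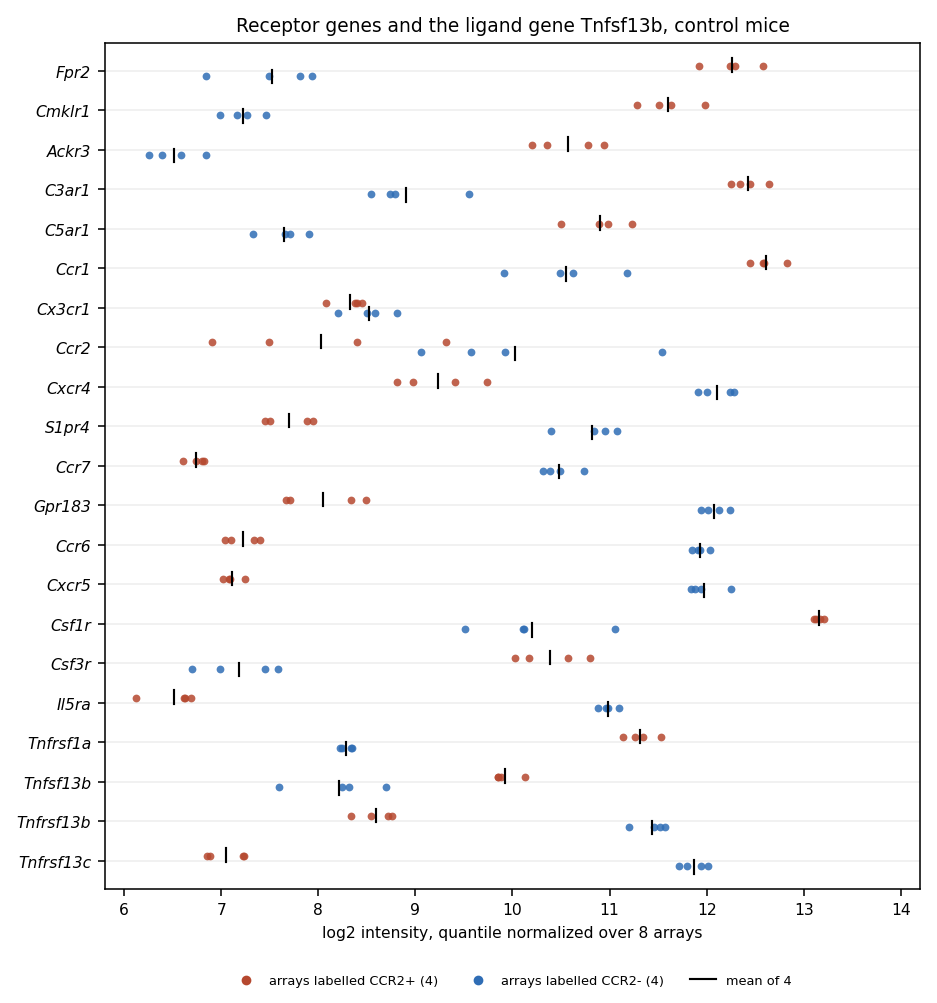
Log2 intensity of 20 receptor genes and of the ligand gene Tnfsf13b in each of the 8 control arrays, red for arrays labelled CCR2+ and blue for arrays labelled CCR2-, with a tick at each group's mean of 4. The colours are apart for all genes shown except Cx3cr1 and Ccr2, whose points mix, and Ccr2 is spread over more than 2 log2 units under each label.

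Integrins pair an alpha with a beta chain, and their genes were not all on 1 side. Itga6, a laminin receptor chain, read 13.20, 13.22, 13.18 and 13 in the arrays labelled CCR2+ against 9.82, 10.09, 9.99 and 10.13 (3.14, SE 0.10, adjusted p = 5.31e-09). Of the beta 2 family, Itgam and the shared chain Itgb2 (1.69) were higher, while Itgax, which encodes CD11c, was lower by −2.57 (SE 0.32) and Itgal, the LFA-1 chain of lymphocytes, by −1.80. Itgax read 6.88, 6.98, 6.87 and 6.92 against 9.93, 9.51, 10.13 and 8.35, low and level under the first label. Itgb3 was higher by 1.65 and Itga3 lower by −2.34. The other Itga3 probe sets read −0.125 and 0.0033, and neither was called (limma over all probe sets, adjusted p = 0.285 and 0.989). Over 23 measured chains 8 were higher (34.8%) and 4 lower (17.4%), the fourth being Itgae. Over all genes 18.4% were called higher and 19.8% lower, so the share of chains called lower did not stand out. Selplg (1.96), the selectin ligand, and Icam2 (2.33), a marker of large peritoneal macrophages, were higher with Selp. Selectin, adhesion and homing genes together gave 7 of 27 higher and 11 lower. Tetraspanin genes gave 8 of 18 higher (44.4%) and 4 lower (22.2%, near the share of all genes), of which 2 were lower under median centring.

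Among genes of the cytoskeleton, Coro1a, a regulator of the leukocyte cytoskeleton, read 8.15, 9.05, 8.54 and 9.93 against 12.69, 13.03, 12.97 and 13.13 (−4.04, SE 0.32, adjusted p = 3.68e-06). Myo1f, a myosin of myeloid cells, went the other way (1.80, SE 0.16), and neither gene overlapped between the labels.

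Enzymes that make eicosanoids, the lipid mediators of arachidonic acid, were mostly higher in the arrays labelled CCR2+. The route begins with Pla2g4a, the phospholipase that frees arachidonic acid, which read 10.73, 11.09, 10.88 and 10.72 in the arrays labelled CCR2+ against 7.59, 7.49, 7.69 and 7.88 (3.20, SE 0.12, adjusted p = 1.55e-08). In the lipoxygenase branch Alox15 read 13.15, 13.06, 13.21 and 13.23 against 7.60, 7.81, 7.92 and 8.26 (5.27, SE 0.13, adjusted p = 1.44e-09), Alox5 differed by 3.75 and Ltc4s, the leukotriene C4 synthase, by 2.72. Alox15, known as a marker of resident peritoneal macrophages, was nearly equal on the 4 arrays labelled CCR2+. In the cyclooxygenase branch Ptgis, the prostacyclin synthase, read 12.92, 12.60, 12.66 and 12.75 against 7.82, 7.90, 8.11 and 8.40 (4.68, SE 0.14, adjusted p = 3.17e-09). Ptges, the inducible prostaglandin E synthase, differed by 3.44 and Tbxas1, the thromboxane synthase, by 2.45. Hpgds, the haematopoietic prostaglandin D synthase, was lower by −1.53 (SE 0.16, adjusted p = 3.41e-05), so that the terminal synthases did not all share a sign. Pla2g7 (5.00) inactivates platelet-activating factor. The receptors Ptgir (2.21), for prostacyclin, and Cysltr1 (2.21), for leukotriene D4, were higher as well. Over the list 16 of 27 were higher and 3 lower, the other 2 being Hpgd and Ltb4r1, with a median of 0.93.

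Retinoic acid is made from retinol by 2 oxidations and acts through RAR and RXR receptors. Aldh1a2, the enzyme of the second step, read 10.33, 10.07, 10.16 and 10.17 against 9.49, 8.17, 8.75 and 7.29 (1.76, SE 0.37, adjusted p = 0.00379). The arrays labelled CCR2- were spread over more than 2 log2 units. The receptor genes Rarg (2.32) and Rarb (1.02) were higher with Rxra, and Rara was not called. Genes that retinoic acid is known to induce were higher: Dhrs3, which returns retinal to retinol, by 3.80 (SE 0.12, adjusted p = 4.67e-09), Cyp26b1, which degrades retinoic acid, by 2.34 and Tgm2, a transglutaminase, by 3.05, although 1 of the 6 Tgm2 probe sets read 0.02. Retinol dehydrogenases of another family were lower, Rdh12 (6.90, 7.06, 7.18 and 6.95 against 10.67, 11.41, 11.27 and 11.57, a difference of −4.21, SE 0.18) and Rdh11 by −1.13. Of 19 retinoid genes 8 were higher (42.1%) and 3 lower (15.8%), the last being Rbp4. The share called lower was under the 19.8% of all genes, and that called higher over the 18.4%.

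**Figure D5:**
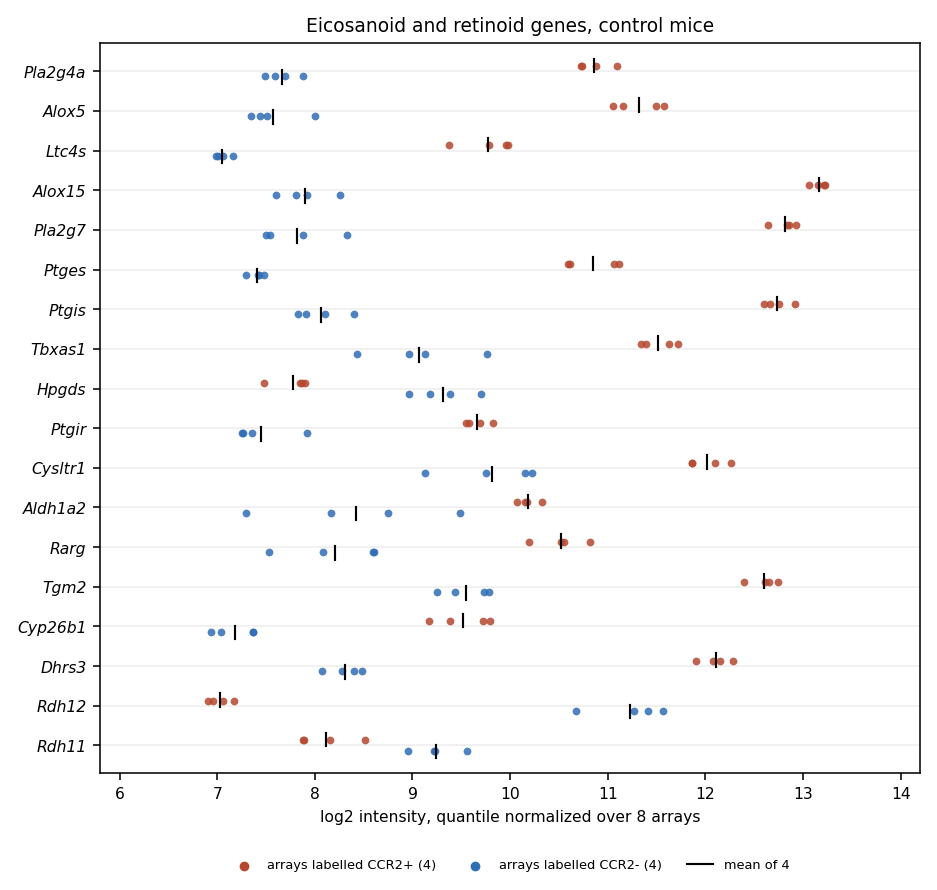
Log2 intensity of 11 eicosanoid genes (Pla2g4a to Cysltr1) and 7 retinoid genes (Aldh1a2 to Rdh11) in each of the 8 control arrays, red for arrays labelled CCR2+ and blue for arrays labelled CCR2-, with a tick at each group's mean of 4. Red points lie to the right except at Hpgds, Rdh12 and Rdh11, and the colours do not overlap for any gene shown.

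Coagulation genes of both the initiating and the common pathway were higher. F7, the partner of tissue factor, read 10.88, 10.39, 10.93 and 11.07 in the arrays labelled CCR2+ against 7.04, 6.62, 6.72 and 6.80 (4.02, SE 0.15, adjusted p = 1.71e-08). F10, which cleaves prothrombin, read 12.63, 12.31, 12.64 and 12.66 against 7.69, 6.75, 7.08 and 7.63 (5.27, SE 0.20), and F5, its cofactor, differed by 5.50. Genes that restrain coagulation were higher too: Pros1, the cofactor of protein C and a ligand of Mertk, by 4.37, Thbd, which encodes thrombomodulin, by 4.03, and Tfpi, the inhibitor of the tissue factor pathway, by 2.70. Plaur, the urokinase receptor, differed by 1.20. F13a1, the fibrin crosslinker of monocytes and macrophages, read 8.85, 8.50, 8.44 and 9.25 against 9.31, 7.09, 6.97 and 7.61 and was not called (1.01, SE 0.45, adjusted p = 0.108). CCR2- control 1 lay above all arrays of the other label, and without it the difference was 1.55 (adjusted p = 0.000533). F13a1 also passed under median centring (1.09, adjusted p = 0.0249), without normalization (1.14, adjusted p = 8.29e-06) and with array weights (1.27, adjusted p = 0.0172). Of 21 genes 12 were higher and 1, Plgrkt, lower, but none lower under median centring (median 0.99).

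Growth factor and matrix genes were higher for 19 of 33 and lower for 2 (median 0.68). Thbs1, a matrix protein that activates TGF-beta, read 12.91, 12.89, 12.91 and 12.50 against 7.57, 7.60, 7.73 and 7.63 (5.17, SE 0.11, adjusted p = 7.5e-10), beside Tgfb2 and its carrier Ltbp1. Bmp2, a bone morphogenetic protein, differed by 4.46 from a group at the floor, Hgf, the hepatocyte growth factor, by 3.38 and Igf1 by 3.13. Tgfb1 differed by 1.54 (SE 0.19), but its other probe set read −0.02, whereas all 4 Tgfb2 probe sets read from 4.89 to 6.12. Ecm1 (4.58) and Emilin2 (4.04) encode matrix proteins. Inhibitors of matrix proteases parted, Timp2 at 3.01 and Timp3 at −1.40 (SE 0.18, adjusted p = 0.000153), and the other gene lower was Pdgfc. Vegfa, the angiogenic factor, read 8.09 ± 0.41 against 8.54 ± 0.58 (SD, n = 4 each) and was not called (−0.46, SE 0.29, adjusted p = 0.256), with the sign turned in its other probe set (0.29). It passed without CCR2- control 4 (−0.72, adjusted p = 0.027).

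Amino acid catabolism set the labels apart in 2 directions. Arg1, which turns arginine into ornithine and urea, read 12.85, 12.68, 12.66 and 12.70 in the arrays labelled CCR2+ against 7.95, 7.68, 7.70 and 8.03 (4.88, SE 0.11, adjusted p = 7.5e-10), and Slc7a2, the transporter that brings arginine into macrophages, read 11.52, 11.17, 11.24 and 11.25 against 7.31, 7.30, 7.48 and 7.34 (3.94, SE 0.10, adjusted p = 1.67e-09). Importer and enzyme were both high on all 4 arrays of the first label. Hal, which degrades histidine, differed by 3.59, Xdh, which makes uric acid, by 4.18 and Nt5e, which encodes the adenosine-forming enzyme CD73, by 3.22, though 1 of the 3 Nt5e probe sets read −0.27. Enzymes of tryptophan breakdown were lower. Kynu read 6.60, 6.79, 6.84 and 6.81 against 11.10, 11.67, 11.72 and 11.61 (−4.77, SE 0.14, adjusted p = 3.32e-09), and Kmo, one step before it, differed by −3.05. Of 18 such genes 8 were higher and 6 lower.

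Glucose transport and glycolysis did not share a sign. Slc2a3, a high-affinity glucose transporter, read 6.68, 6.94, 6.89 and 6.32 against 10.70, 10.15, 10.26 and 10.02 (−3.58, SE 0.18, adjusted p = 1.05e-07), Slc2a1 differed by −1.75 and the glucose phosphate transporter Slc37a2 by −2.14. Of 22 glycolysis and hypoxia genes, a list that also holds Slc2a1, 13 were higher and 4 lower (median 0.55). Egln3, an oxygen-sensing hydroxylase that hypoxia induces, read 10.96, 10.93, 11 and 10.79 against 6.48, 6.91, 7.09 and 6.89 (4.08, SE 0.13), Pfkl, a phosphofructokinase, differed by 1.68 with 1 of its 3 probe sets at 0.36, and Aldoc, an aldolase, by −1.64. The others lower were Pfkfb3 and Hif1a, and 2 were lower under median centring. Slc11a1, the divalent metal exporter of phagosomes, differed by 4.06. Over 27 solute carriers 12 were higher (44.4%) and 7 lower (25.9%), against 18.4% and 19.8% of all genes, and 4 were lower under median centring.

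Genes of fatty acid and sterol synthesis had both signs. Scd1, the stearoyl-CoA desaturase, read 8.01, 7.80, 8.13 and 8.92 in the arrays labelled CCR2+ against 12.53, 12.65, 12.62 and 12.75 (−4.42, SE 0.21, adjusted p = 7.68e-08), with its other probe set at −4.33, and Scd2 differed by −1.58 (SE 0.34). The groups of Scd1 were more than 3 log2 units apart. Acaca, which makes malonyl-CoA, was higher by 1.65 (SE 0.14) and Insig1, a brake on sterol synthesis, by 1.48, while Cyp51, a sterol demethylase, was lower by −1.12. The others called were Mvd and Elovl5, higher, and Srebf2 and Pmvk, lower. With 4 of 23 higher and 5 lower, close to the shares of all genes, the list as a whole did not stand out, and its median of −0.09 was 0.14 under median centring.

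Lysosomal genes are known to carry the CLEAR element, an E-box bound by the family of Mitf, Tfec and Tfeb, and 20 of 27 measured were higher and 1, Atp6v0a1, lower (median 1.00). Its core was searched as TCACGTGA on both strands of the same RefSeq windows. It was found for 6 of 20 lysosomal genes with a promoter (30%), Ctsa, Ctsd, Gla, Atp6v0d1, Atp6v1a and Mcoln1, against 1.12% of 27025 genes, and a longer palindrome of the element for 0 of 20 against 0.37%. Shown are 3 of these promoters, 1 each of a protease, a glycosidase and a proton pump subunit, with the core in capitals, as the 250 bases before the start on the minus strand. They lie at chr7:142387828-142388077 for Ctsd, chrX:134601006-134601255 for Gla and chr16:44139260-44139509 for Atp6v1a, and the first match lies at −99, −228 and −132 relative to the start.
Ctsd: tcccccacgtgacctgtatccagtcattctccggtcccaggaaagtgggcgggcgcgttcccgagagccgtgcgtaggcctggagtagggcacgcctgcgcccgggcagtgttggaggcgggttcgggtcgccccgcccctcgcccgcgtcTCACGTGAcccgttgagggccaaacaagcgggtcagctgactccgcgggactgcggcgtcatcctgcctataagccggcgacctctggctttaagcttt
Gla: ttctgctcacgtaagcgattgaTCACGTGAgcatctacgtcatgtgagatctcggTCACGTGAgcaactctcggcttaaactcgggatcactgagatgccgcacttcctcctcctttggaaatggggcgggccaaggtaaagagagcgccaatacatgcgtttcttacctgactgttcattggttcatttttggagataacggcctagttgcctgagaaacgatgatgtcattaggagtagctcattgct
Atp6v1a: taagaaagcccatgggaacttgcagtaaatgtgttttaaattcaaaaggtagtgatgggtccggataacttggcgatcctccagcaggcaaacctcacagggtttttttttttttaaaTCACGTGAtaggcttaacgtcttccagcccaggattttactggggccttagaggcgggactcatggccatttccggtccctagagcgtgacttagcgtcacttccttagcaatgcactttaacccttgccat

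Ctsd, the aspartic protease cathepsin D, read 13.38, 13.28, 13.39 and 13.33 in the arrays labelled CCR2+ against 10.54, 10.49, 10.34 and 10.66 (2.84, SE 0.09, adjusted p = 6.03e-09). Gla, the alpha-galactosidase, read 9.40, 9.47, 9.54 and 9.92 against 7.38, 7.37, 7.46 and 7.99 (2.03, SE 0.17), with the lowest of its 3 probe sets at 0.23 and not called. Atp6v1a, a subunit of the vacuolar proton pump, read 12.51, 12.83, 12.67 and 12.64 against 11.27, 11.28, 11.28 and 11.61 (1.30, SE 0.11, adjusted p = 6.78e-06). The difference narrowed in that order, from more than 2 log2 units to little more than 1. Ctsa differed by 2.06 and Atp6v0d1 by 0.55, while Mcoln1 was not called. Ctsl, not among the genes with a match, differed by 4.21. Ctss, a protease of antigen presentation, read 13.36 ± 0.10 against 13.24 ± 0.04 (SD, n = 4 each), a difference of 0.12 (adjusted p = 0.324). Under median centring Ctss differed by 0.58 (adjusted p = 0.024).

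The PU.1 site searched as GAGGAAGT was found for 1 of 13 general macrophage promoters (7.7%), Ctss, and 2 of 14 B cell promoters (14.3%), Cd72 and Cd37, against 3.69% of all genes. The GATA core AGATAA was found for 2 of 15 large peritoneal macrophage promoters (13.3%), Tgfb2 and Serpinb2, and for 12.7% of all genes, a share near the background.

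GIMAP genes, GTPases of lymphocyte survival that lie in 1 cluster, were lower for 8 of 8 measured (median −3.84). Gimap8 read 6.88, 6.96, 6.79 and 6.39 against 11.97, 12.04, 12.09 and 11.96 (−5.26, SE 0.13, adjusted p = 1.1e-09), Gimap7 differed by −5.09 from the floor, and Gimap9 differed least, by −1.42 (SE 0.15). Of the genes of lymphocyte survival, recombination and mutation, Bcl2, which blocks apoptosis, read 9.76, 8.77, 9.37 and 8.97 against 11.32, 11.87, 11.93 and 11.91 (−2.54, SE 0.22, adjusted p = 7.3e-06). Pik3ip1, a brake on PI3 kinase, differed by −3.15 and Pim1, a survival kinase, by −2.27, with its other probe set at −0.15. Here 5 of 20 were higher, Rgs18, Rgs1, Rgs2, Bcl2l1 and Rag2, and 10 lower, and the median of −0.30 was 0.01 without normalization.

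Counts for genes of general cell functions moved with the scaling. Under median centring 22.3% of all genes were called higher and 10.9% lower. Oxidative phosphorylation genes were higher for 5 of 21, namely Ndufa4 (1.25, SE 0.25), Ndufb8, Ndufb5, Ndufa1 and Cox5a, but for 13 under median centring, and Atp5a1 was lower. The main count of 5 is near the share of all genes. Chaperones of the endoplasmic reticulum were higher for 11 of 22, but for 17 under median centring, with Sec61b, a translocon subunit, at 1.82 (SE 0.15), and lower for Pdia4 and Herpud1. Cytosolic ribosomal protein genes were lower for 3 of 18, Rps9, Rps19 and Rps24 (median −0.17), but for 0 under median centring, where the median was 0.29. Cell cycle genes were higher for 1 of 23, Tyms, and lower for 5, Mcm6, Rrm1, Aurkb, Cdc20 and Mcm3, but for 1 under median centring (median −0.31, there −0.03). The ribosomal and cell cycle lists, with 16.7% and 21.7% called lower in the main fit, lay near the 19.8% of all genes. Of 22 immediate early and stress genes 9 were higher and 3, Jund, Nr4a3 and Jun, lower. Among them Dusp1, a phosphatase induced by stress, read 12.64, 12.10, 12.77 and 11.67 against 11.04, 8.63, 9.76 and 8.40 (2.84, SE 0.52, adjusted p = 0.00149), and the second group was spread over more than 2 log2 units.

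Of 19 general macrophage genes 17 were higher (median 1.95), with Mertk, a receptor for dying cells, at 4.62 and Cd68 at 2.94, and Timd4, another such receptor, differed by 4.37. Of 16 genes of small peritoneal macrophages and monocytes 8 were lower and 2 higher (median −0.68), and 5 were higher under median centring. Plac8 read 9.20, 9.97, 10 and 9.51 in the arrays labelled CCR2+ against 13.30, 13.25, 13.20 and 13.26 (−3.58, SE 0.17, adjusted p = 7.52e-08), and Ms4a4c differed by −3.69. Mgl2, a lectin gene, differed by −2.40 and S100a4 by −2.10. Plac8 and S100a4 are also known in lymphocytes. The members that were higher were Vcan, by 0.48 with probe sets from −0.11 to 1.32, and Chil3, by 1.95 (SE 0.59, adjusted p = 0.0251). Chil3 read 9.36, 10.20, 9.04 and 9.51 against 6.74, 9.64, 7.40 and 6.54, with CCR2- control 2 among the arrays of the other label. Its call was lost without CCR2+ control 2 (adjusted p = 0.0717) or 4 (0.05), and without CCR2- control 1 (0.0678), 3 (0.062) or 4 (0.0592), with differences of 1.59 to 1.96. The Chil3 call was also lost with array weights (1.42, adjusted p = 0.106) and without moderation of the variance (adjusted p = 0.0992). Without CCR2- controls 1 and 3 together it was lost as well (1.51, adjusted p = 0.201).

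Within the B cell lineage, B-1 genes were lower for 9 of 11, among them Nid1 by −4.75, the phosphatase gene Ptpn22 by −3.69 and Zbtb32, a zinc finger factor, by −3.06. The other 2, Itgam and Cd9 (2.47), are macrophage genes as well and were higher. Of 9 plasma cell genes 5 were lower, the last 3 being Prdm1, Fkbp11 and Derl3, and 2 higher, Xbp1 and Tnfrsf17, but 1 under median centring, with Mzb1, a chaperone of immunoglobulin assembly, at −5.00, Jchain at −2.72 from the floor and Xbp1, the secretory pathway factor, at 0.84 (SE 0.18, adjusted p = 0.00423). Jchain was uneven under the second label, at 8.15, 9.12, 10.05 and 8.30. Dendritic cell genes were lower for 11 of 15, with Dpp4 at −4.45, Ciita, which switches on MHC class II, at −2.94, and Ccr7, Kmo, Itgax and Flt3 as given above, several of which B cells also express, and Sirpa and Bst2 were higher.

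Other cell types gave fewer calls. Over all genes 18.4% were called higher and 19.8% lower, and most lists of this paragraph lay near or under these shares. The largest share was 29.4% of T and NK cell genes called lower. T and NK cell genes were lower for 5 of 17, Cd247 (−1.72), Prf1, Klrk1, Cd3g and Cd4, and higher for Cd8b1, which was lost under median centring, with Cd3e not called. Of the 4 Cd247 probe sets those at −0.16 and −0.05 were not called (limma over all probe sets, adjusted p = 0.511 and 0.841). Neutrophil genes were higher for 2 of 12, Csf3r and Mmp9, and S100a8 and S100a9 were not called. Mast cell and eosinophil genes were lower for Il5ra, Kit (−1.49, from the floor) and Ms4a2 of 12 measured and higher for 2, Siglecf and Ccr3, but for 0 under median centring. Epithelial, mesothelial and tumour cell genes were lower for Epcam (−1.35), Krt8 (−0.95) and Cdh1 of 14 and higher for Krt7, with Krt18 not called (−0.37, SE 0.32, adjusted p = 0.42). Krt18 passed without CCR2- control 1 (−0.70, adjusted p = 0.0368). Fibroblast and endothelial genes were lower for Pecam1 and Kdr of 14, but for 1 under median centring, and erythroid and platelet genes were higher for Pf4 (5.09), a chemokine gene that macrophages express as well, and lower for Gp9 and Alas2 of 8 measured.

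Rbpj, the gene deleted in the endothelium of the other mice, read 11.58, 11.37, 11.41 and 11.20 in the control arrays labelled CCR2+ against 10.75, 10.35, 10.57 and 10.23 (0.91, SE 0.13, adjusted p = 0.000318), with no overlap. Its 3 probe sets read from 0.40 to 1.78, and the one at 0.40 did not pass (limma over all probe sets, adjusted p = 0.064). In RbpjiΔEC mice the same contrast of labels, fitted over 16 arrays, called 7107 genes (39.1%). Its values came from separate arrays, but the fit shared normalization and variance estimates with the control arrays. Multiplied as above, 100% of the deposited values labelled CCR2- in these mice became whole numbers, against 2.62% to 2.91% of those labelled CCR2+. In RbpjiΔEC mice too, label and scale cannot be told apart. Gata6 differed there by 4.18, Alox15 by 5.50, Ptgis by 4.56, Arg1 by 4.67, Fcrla by −6.60, Ikzf3 by −5.90 and Scd1 by −4.94. Ccr2 differed there by −1.26 (adjusted p = 0.135, limma) and was not called. From the same fit, F13a1 differed by 2.55 there against 1.01 in control mice and Chil3 by 4.07 against 1.94. The test of the difference between genotypes called 0 of 18194 genes in limma, so none of these gaps passed. At an unadjusted p under 0.05 lay 555 genes, and 636 with the replicate number as a block. Both counts are under the share of 0.05 that such a threshold passes when nothing differs.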

How the data were processed

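RNA of sorted cells was measured on 16 arrays, of which the 8 of control mice enter the main comparison. The values are intensities of 45101 probe sets as deposited by the authors in the series' value table, and their summarisation and normalization are not given in the sources used here. Intensities were taken as log2 and quantile normalized over the 8 arrays (R 4.3.3, limma 3.58.1). Of the probe sets 34958 had 1 gene symbol in the platform annotation, 932 several, 9211 were not listed, and 64 array controls were left out of the gene fit. The brightest probe set stood for each of 18194 genes, of which 9012 had several, and 18146 symbols matched RefSeq. The labels were compared with lmFit and eBayes, with Benjamini-Hochberg adjustment and a threshold of 0.05, and the genotypes with an interaction over all 16 arrays. Array controls were compared by two-sided exact permutation. The number of arrays limits the precision. Tested on simulated data with 18194 genes, 42%, 78%, 96% and 98% of 50 genes each were recovered at log2 changes of 0.5, 1, 1.5 and 2, with 7 false calls. Only these genes were changed, evenly in both directions and with independent noise, while 38.3% of genes were called in the data. The rates may therefore not hold for this comparison, and false calls from normalizing such large shifts were not examined. Genes were named as the 15 largest differences in each direction without overlap, up to 5 called members of each list in each direction, up to 3 not called, and set identity genes. Beyond these, 36 of the 230 genes described in full, and others named to account for small counts, were chosen after their values were seen. Members and lists were chosen with earlier results of these data known. Alternatives were median centring, no normalization, normalization over all 16 arrays, a filter on dim genes, other probe sets, other limma settings, a replicate block and leaving out arrays. Promoter sequences are RefSeq's on GRCm38.p6. 1 group of genes is not reported here.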

Additional observations from a re-analysis of the deposited data

Results flagged for a closer look

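In groups of 4 arrays, 26 of 460 had 1 array whose gap to the nearest other array exceeded Dixon's critical share of the range, and chance flags about 1 in 20 groups. All values are log2 intensities, with the nearest other array of the group second. In CCR2+ control 1 these were Fcgr1 at 10.94 (10.24), Tnfsf13b at 10.13 (9.88), Hpgds at 7.48 (7.85), Igf1 at 11.17 (10.39) and Ctsl at 11.95 (12.48). In CCR2+ control 2 they were F10 at 12.31 (12.63), Pros1 at 12.72 (12.63), Vegfa at 7.47 (8.23) and Zbtb32 at 7.93 (7.77). CCR2+ control 3 stood apart for Cd33 at 11.84 (11.40). CCR2+ control 4 stood apart for Fcer2a at 6.64 (7.12), Il5ra at 6.12 (6.62), Thbs1 at 12.50 (12.89), Bmp2 at 10.54 (10.82) and Itga6 at 13 (13.18).

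CCR2- control 1 stood apart for Ptgir at 7.92 (7.35), Ecm1 at 8.25 (7.87) and Bcl2 at 11.32 (11.87). CCR2- control 2 did so for Thbd at 7.15 (6.76) and CCR2- control 3 for Tlr13 at 7.91 (7.51). In CCR2- control 4 these were Slpi at 8.65 (7.72), Fabp7 at 8.23 (7.18), Fcgrt at 9.0 (10.08), Gla at 7.99 (7.46), Atp6v1a at 11.61 (11.28) and Ms4a4c at 10.63 (11.16). Except for Vegfa, which was not called, the labels did not overlap for any of these genes.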

How the results depend on the processing

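Of 224 called genes described in full, 204 kept their call and direction under each of the 19 alternatives that measured them. The filter on dim genes, which kept 12129 of 18194 genes, left out a few. Other choices of probe set cannot change the values of genes with 1 probe set. Genes called lower numbered 1981 under median centring and 1447 without normalization, where 2160 were at least 2-fold higher. Without normalization the actin 3' minus 5' difference was −0.147 (exact permutation p = 0.0286) and that of bioB −0.023 (exact permutation p = 0.8286). Ptprc changed sign under median centring (0.17) and without normalization (0.23). With the dimmest probe set Tgfb1 (−0.0175), Vegfa (0.29), Nt5e (−0.27) and Vcan (−0.0172) changed sign, and Runx1, Foxo1, Tlr4, Il13ra1, Il7r, Tgm2, Rdh11, Itga3, Pim1, Pfkl, Gla, Zbtb32, Cd247, Epcam and Krt8 lost their call. The cause was not tested. Leaving out 1 array gave 6194 to 6933 called genes, and leaving out CCR2- controls 1 and 3 together, chosen after seeing the data, 5614. Replicate numbers correlated at 0.0545, −0.0282, 0.212 and 0.404 and share only a number, and a replicate block gave 7270 calls and took in Ptprc (adjusted p = 0.0444) and F13a1 (adjusted p = 0.041).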
